A study of Mus musculus with 28 samples.

Results

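The genes described here are 42 genes of the extracellular matrix and of hepatic stellate cells, picked by name and all present among the 24197 RefSeq genes of the authors' deposited table. They were followed in nuclear RNA from livers of outbred Crl:CD1(ICR) mice injected with TCPOBOP, which activates the nuclear receptor CAR (Nr1i3), or with vehicle, DMSO in corn oil. The first TCPOBOP dose was 3 mg/kg. The 2-week mice followed the low corn oil regimen, in which 4 µl of oil with 10% DMSO went in per g of mouse, and comprised 4 TCPOBOP males, 3 vehicle males, 4 TCPOBOP females and 3 vehicle females, all aged 9 to 10 weeks. The 8-week mice were males. Under high corn oil, with 20 µl per g and 2% DMSO, 3 TCPOBOP mice (1 mg/kg at each later dose) and 3 vehicle mice were studied at 15 to 16 weeks of age. Under low corn oil 4 TCPOBOP mice of 15 to 16 weeks, given 1.5 mg/kg at each later dose, were set against 4 vehicle mice treated for 4 to 8 weeks, of which 2 were aged 11 to 12 weeks and 2 were aged 15 to 16 weeks. Each of the 28 libraries came from 1 liver and was selected for polyadenylated RNA.

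Hepatic stellate cells are the vitamin A-storing pericytes of the liver sinusoid. In injury they are known to lose their retinoid stores, acquire contractile filaments and secrete fibrillar collagens, a change driven by growth factors such as TGF-beta and PDGF. Matrix proteases degrade the deposited fibres, and tissue inhibitors of metalloproteinases (TIMPs) block those proteases. Type I and type III collagens form the fibres of scar tissue, type IV collagen lies in basement membranes, and lysyl oxidases cross-link collagen and elastin. Portal fibroblasts, smooth muscle, endothelium and macrophages can express part of the same genes.

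The table holds 1 pooled FPKM value per group (fragments per kilobase, scaled to library size) and, for each comparison, the authors' signed fold change and p-value, given here as log2 fold change and adjusted p. A gene was called at a deposited p under 0.05. No spread between mice accompanies these values, and sequencing depth is unknown. All 42 genes stood above 0 FPKM in all 8 groups, so none was lost to a filter. Their mean over the groups ran from 0.0415 FPKM for Lox to 61.0 FPKM for Fn1, with a median of 2.31 FPKM, and 7 genes averaged under 0.5 FPKM. In whole liver, fewer cells of a type and less RNA per cell cannot be told apart. The 12 stellate cell markers, among them Lrat, Reln, Des, Pdgfrb, Dcn, Hgf and Lhx2, were all above 0 and summed to between 78.6 and 148 FPKM per group, beside sums of 164 to 289 FPKM for 15 endothelial and 6051 to 16742 FPKM for 9 hepatocyte markers.

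TCPOBOP livers had more RNA of the fibrillar collagens Col1a1, Col1a2 and Col3a1 than vehicle livers in both sexes at 2 weeks and under both oil regimens at 8 weeks. Contractile and fibrogenic genes (Tagln, Acta2, Ctgf, Tgfb2) passed the test only among the 8-week comparisons, although the difference between times was not tested. Acta2 and Tgfb2, both scarce, did so under low corn oil alone. For Tagln, Acta2 and Tgfb2 both vehicle groups of the 8-week comparisons read below both 2-week vehicle groups. Core stellate cell genes such as Dcn, Des, Reln and Pdgfrb were called in none of the 4 comparisons with vehicle, and Lrat was lower in 1 of them. Of the 42 genes, 6 were higher and none lower in 2-week males, where 3.42% of all 17819 genes above 0 FPKM were called higher and 2.42% lower. In 2-week females 5 were higher and 1 lower, against 4.67% and 4.3% of all genes. Under high corn oil at 8 weeks 6 were higher and none lower, against 5.51% and 2.54%. Under low corn oil at 8 weeks 11 were higher and 1 lower, against 4.98% and 3.76%. In 2-week males 9834 of the 17819 genes reached 1 FPKM in both groups, and 29 of the 42 averaged 1 FPKM or more. The shares over all genes, here and below, thus include many scarce genes, and no share matched for level was computed. The median log2 fold change of the 42 genes was 0.08 in 2-week males, 0.24 in 2-week females, 0.34 under high and 0.29 under low corn oil at 8 weeks, where the medians over all genes lay between -0.03 and 0.02.

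**Figure D1:**
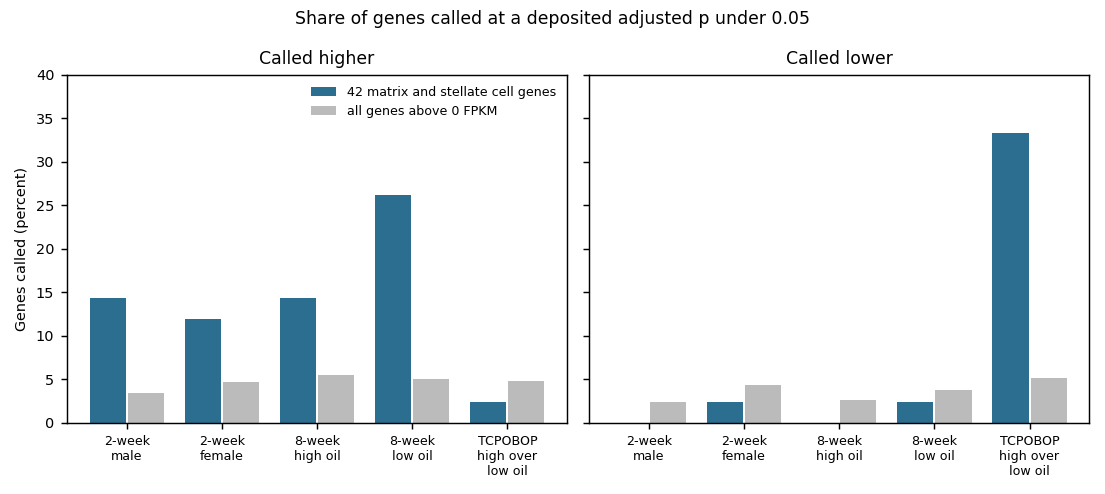
Percent of the 42 matrix and stellate cell genes (blue) and of all genes above 0 FPKM (grey) called higher (left) or lower (right) in each comparison of the authors' deposited table; the first 4 are TCPOBOP over vehicle and the last is TCPOBOP under high over low corn oil. The blue bars exceed the grey ones for higher calls in the first 4 comparisons, with 11 of 42 genes under low corn oil at 8 weeks. They also do so for lower calls in the last, with 14 of 42 genes. The grey bars include many genes of low FPKM and are not matched to the 42 for level.

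Fibrillar collagens gave the clearest pattern. Col1a1, the alpha 1 chain of type I collagen, read 1.14 FPKM in TCPOBOP against 0.324 FPKM in vehicle livers of 2-week males, 1.83 against 0.332 FPKM in 2-week females, 1.38 against 0.220 FPKM under high corn oil and 3.14 against 0.648 FPKM under low corn oil at 8 weeks. Every TCPOBOP group lay above every vehicle group. Its log2 fold changes in the authors' deposited table were 1.74 (adjusted p = 2.87e-09), 2.44 (adjusted p = 3.26e-10), 2.70 (adjusted p = 1.58e-08) and 2.17 (adjusted p = 2.06e-05) in the same order. Col1a2, its partner chain, read 3.06 against 1.68 FPKM in TCPOBOP and vehicle livers of 2-week males, 4.62 against 2.54 FPKM in 2-week females, 2.12 against 1.11 FPKM under high and 4.10 against 1.83 FPKM under low corn oil. The changes of Col1a2 were smaller than those of Col1a1, with log2 fold changes of 0.80, 0.84, 0.99 and 1.06 (adjusted p = 0.00318, 0.0173, 0.0196 and 0.00434) in the authors' deposited table. For Col1a2 the TCPOBOP group under high corn oil lay below the vehicle females, so the 2 sets of groups overlap.

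Col3a1, the type III collagen chain and the highest in FPKM of the 5 fibrillar collagen genes in the set, read 8.01 FPKM in TCPOBOP against 4.09 FPKM in vehicle livers of 2-week males, 12.4 against 5.04 FPKM in 2-week females, 6.84 against 3.53 FPKM under high and 11.8 against 4.41 FPKM under low corn oil. All TCPOBOP groups lay above all vehicle groups, at log2 fold changes of 0.89, 1.28, 1.01 and 1.32 (adjusted p = 0.00593, 7.83e-06, 0.00306 and 0.000125) in the authors' deposited table. Such a separation was also seen for Col15a1, Tagln and Acta2, and its share over all genes was not computed. Col1a1, Col1a2 and Col3a1 were called higher in all 4 comparisons, as were 1.39% of the 16750 genes above 0 FPKM in all of them. None of the 42 was called lower in all 4, as were 0.454%. The type V chains, which regulate fibril diameter, differed. Col5a2 read 0.665 against 0.503 FPKM in TCPOBOP and vehicle livers of 2-week males, 1.02 against 0.641 FPKM in 2-week females, 0.490 against 0.344 FPKM under high and 0.845 against 0.475 FPKM under low corn oil, and was called in the last (log2 fold change 0.74, adjusted p = 0.0440, in the authors' deposited table). Col5a1 was called in none of the comparisons with vehicle, where its values ran from -0.17 to 0.09 (log2 fold change) in the authors' deposited table.

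**Figure D2:**
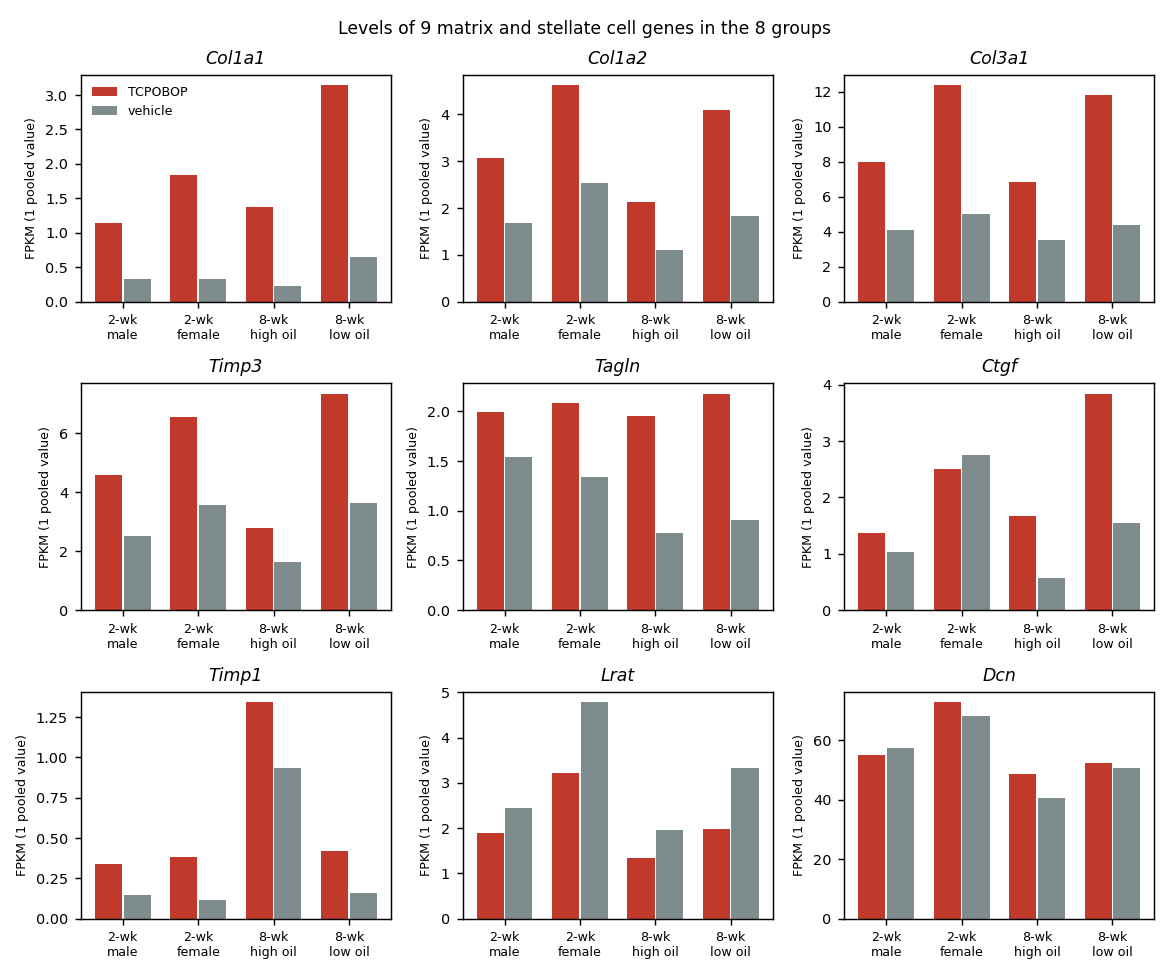
FPKM of 9 genes (1 pooled value per group and no error, y axes from 0) in TCPOBOP (red) and vehicle (grey) livers of the 4 comparisons with vehicle. Col1a1, Col3a1 and Tagln have all red bars above all grey bars. Tagln and Ctgf have their widest gaps at 8 weeks, and Timp1 is highest in the high corn oil groups at 1.34 and 0.938 FPKM. Lrat is lower in each TCPOBOP group and Dcn shows no call.

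The stretches before the starts of Col1a2 and Col3a1, which were higher in all 4 comparisons, and of Acta2, which was called in 1 of them, are shown to set the sequences of genes with different patterns side by side. They are the 250 bases upstream of the RefSeq gene start on build GRCm38.p6, read along the gene's strand: chr6:4505368-4505617 on the plus strand for Col1a2, chr1:45311288-45311537 on the plus strand for Col3a1 and chr19:34255374-34255623 on the minus strand for Acta2. Capitals mark CAGAC (a SMAD half-site, where the transcription factors of TGF-beta signalling can bind), GGGCGG (a GC box) and CCAAT, each on either strand, and no marked motif overlaps another.
Col1a2: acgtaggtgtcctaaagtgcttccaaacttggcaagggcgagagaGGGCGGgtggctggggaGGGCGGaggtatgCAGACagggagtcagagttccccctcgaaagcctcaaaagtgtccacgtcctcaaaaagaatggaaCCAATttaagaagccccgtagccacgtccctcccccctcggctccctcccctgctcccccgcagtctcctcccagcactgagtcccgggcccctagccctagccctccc
Col3a1: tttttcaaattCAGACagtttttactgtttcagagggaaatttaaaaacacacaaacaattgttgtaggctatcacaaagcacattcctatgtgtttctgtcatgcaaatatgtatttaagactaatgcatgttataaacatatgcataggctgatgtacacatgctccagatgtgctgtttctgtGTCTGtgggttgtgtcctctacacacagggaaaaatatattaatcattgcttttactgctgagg
Acta2: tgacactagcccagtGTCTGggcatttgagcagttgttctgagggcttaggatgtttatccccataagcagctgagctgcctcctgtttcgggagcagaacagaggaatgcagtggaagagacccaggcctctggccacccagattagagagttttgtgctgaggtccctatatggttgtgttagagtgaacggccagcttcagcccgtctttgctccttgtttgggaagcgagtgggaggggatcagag

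The Col1a2 window is GC-rich (62% G and C) and held 2 GC boxes, 1 SMAD half-site and 1 CCAAT, whereas the Col3a1 window (35.2% G and C) held 2 SMAD half-sites and neither of the other motifs, and the Acta2 window (53.6%) held 1 SMAD half-site. In RefSeq's set, 28 of the 42 genes had an upstream window and 14, Col1a1 among them, had none. CAGAC lay in 13 of the 28, against 42.2% of all 32851 windows of the same length. GGGCGG lay in 16 of 28 against 32.7%, and CCAAT in 9 of 28 against 33.8%. A gene counted where any of its windows held the motif, whereas the shares are over single windows, so the measures differ. A match is a description of these letters, not a binding site.

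The other 7 collagens of the set gave 1 call in each comparison with vehicle. Col15a1, a collagen linked to basement membranes, read 1.92 FPKM in TCPOBOP against 1.15 FPKM in vehicle livers of 2-week males, 2.71 against 1.17 FPKM in 2-week females, 2.32 against 1.78 FPKM under high and 2.62 against 1.38 FPKM under low corn oil. It was called in both 2-week comparisons, at log2 fold changes of 0.67 (adjusted p = 0.0363) and 1.19 (adjusted p = 4.63e-05) in the authors' deposited table. Col14a1, a fibril-associated collagen, read 8.46 against 5.42, 14.9 against 9.14, 5.37 against 3.12 and 10.4 against 6.80 FPKM in TCPOBOP and vehicle livers of 2-week males, 2-week females, high oil and low oil. Col14a1 passed the test under high corn oil (log2 fold change 0.83, adjusted p = 0.0264, in the authors' deposited table). Col6a3, a microfibrillar type VI chain, was close to its vehicle level in 3 comparisons (0.627 against 0.597, 0.656 against 0.668 and 0.760 against 0.624 FPKM in TCPOBOP and vehicle livers of 2-week males, 2-week females and high oil). Under low corn oil it read 1.95 FPKM in TCPOBOP against 0.791 FPKM in vehicle livers and was called (log2 fold change 1.18, adjusted p = 0.0401, in the authors' deposited table). Col6a1 and Col6a2 were called nowhere.

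The paired basement membrane chains Col4a1 and Col4a2 missed the threshold in all 4 comparisons. Col4a1 read 7.72 against 4.71, 10.5 against 6.73, 4.10 against 3.83 and 9.06 against 8.43 FPKM in TCPOBOP and vehicle livers of 2-week males, 2-week females, high oil and low oil. Its adjusted p was 0.0827 in 2-week males and 0.0528 in 2-week females of the authors' deposited table. For Col4a2 the same pairs were 5.29 against 3.91, 6.55 against 4.25, 2.72 against 4.00 and 6.37 against 7.61 FPKM, with adjusted p from 0.0503 to 0.568 in the authors' deposited table. Both genes had positive log2 fold changes at 2 weeks. At 8 weeks Col4a2 had values of -0.51 under high and -0.36 under low corn oil in the authors' deposited table.

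Collagen cross-linking genes gave no call against vehicle. Loxl2, a lysyl oxidase relative that cross-links basement membrane collagen, read 0.881 against 0.578, 1.48 against 0.894, 0.542 against 0.390 and 1.25 against 0.743 FPKM in TCPOBOP and vehicle livers of 2-week males, 2-week females, high oil and low oil. In the authors' deposited table its values of 0.54, 0.71, 0.52 and 0.65 (log2 fold change) missed the threshold, the closest with an adjusted p of 0.0908. Lox, the founding lysyl oxidase, stayed at or under 0.0921 FPKM in all groups, and in the authors' deposited table its values of 1.12 to 1.72 (log2 fold change) were not called. Loxl1 lay between 0.128 and 0.360 FPKM with no call.

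Among the 9 glycoproteins and proteoglycans of the matrix, single calls fell to Sparc and Postn. Sparc (osteonectin), a collagen-binding glycoprotein, read 73.5 FPKM in TCPOBOP against 40.0 FPKM in vehicle livers of 2-week males, 91.9 against 59.1 FPKM in 2-week females, 40.3 against 29.0 FPKM under high and 63.8 against 41.4 FPKM under low corn oil. It was called in 2-week males (log2 fold change 0.81, adjusted p = 0.00417), with values of 0.61, 0.52 and 0.53 in the other 3 comparisons of the authors' deposited table. Postn (periostin), a matricellular protein, read 2.50 against 1.79, 4.18 against 3.42, 2.04 against 1.14 and 3.65 against 1.70 FPKM in TCPOBOP and vehicle livers of 2-week males, 2-week females, high oil and low oil, and was called in the last (log2 fold change 1.00, adjusted p = 0.000981, in the authors' deposited table). Fbn1 (fibrillin-1, of elastic microfibrils) read 0.400 against 0.272, 0.669 against 0.463, 0.269 against 0.206 and 0.680 against 0.420 FPKM in the same order of groups, without a call.

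Of the 3 genes with the highest mean FPKM in the set, Fn1, Dcn and Sparc, only Sparc was called against vehicle. Fn1 (fibronectin), also a plasma protein made by hepatocytes, read 50.0 against 65.6, 70.5 against 79.3, 55.0 against 54.4 and 52.5 against 61.0 FPKM in TCPOBOP and vehicle livers of 2-week males, 2-week females, high oil and low oil, with adjusted p of 0.216 or more in the authors' deposited table. Dcn (decorin), a small proteoglycan of stellate cells and fibroblasts, read 55.0 against 57.3, 72.7 against 68.1, 48.7 against 40.5 and 52.3 against 50.5 FPKM in the same order. Its log2 fold changes ran from -0.13 to 0.31 in the authors' deposited table. Bgn, Lum, Eln and Tgfbi likewise gave no call in the authors' deposited table, where their values ran from -0.58 to 0.55 (log2 fold change).

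Of the 5 matrix proteases and inhibitors in the set, Timp3 alone was called against vehicle. Timp3, a matrix-bound inhibitor of metalloproteinases, read 4.59 FPKM in TCPOBOP against 2.52 FPKM in vehicle livers of 2-week males, 6.54 against 3.58 FPKM in 2-week females, 2.78 against 1.63 FPKM under high and 7.34 against 3.64 FPKM under low corn oil. Its log2 fold changes were 0.79 (adjusted p = 0.0371), 0.85 (adjusted p = 0.00590), 0.83 (adjusted p = 0.0532, not called) and 0.91 (adjusted p = 0.00187) in the authors' deposited table. Timp1, an inhibitor known to be induced in stellate cells and hepatocytes by injury and cytokines, read 0.342 against 0.147, 0.381 against 0.118, 1.34 against 0.938 and 0.420 against 0.159 FPKM in TCPOBOP and vehicle livers of 2-week males, 2-week females, high oil and low oil. None of its log2 fold changes of 1.14, 1.66, 0.58 and 1.27 was called in the authors' deposited table. Timp2 read 4.50 against 5.46, 6.73 against 7.12, 3.56 against 5.11 and 6.19 against 6.13 FPKM in the same order, and Mmp14, the membrane-bound protease that activates pro-MMP2, read 5.16 against 6.53, 7.77 against 7.94, 5.58 against 5.41 and 7.32 against 6.51 FPKM. Neither was called against vehicle, nor was Mmp2.

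Timp1 and Timp3 lie within the synapsin genes Syn1 and Syn3 on the opposite strand in the GENCODE annotation, and Tagln overlaps Pcsk7. Libraries were stranded per the labels, but no source used here says whether counting used the strand. Syn1 and Syn3 reached at most 0.129 and 0.121 FPKM. Syn1 had log2 fold changes of 0.85, 0.99, 0.43 and 0.30 in 2-week males, 2-week females, high oil and low oil. None was called in the authors' deposited table, and all had the direction of Timp1. Under high over low corn oil Syn1 had a value of -0.26 there, where Timp1 was higher. Pcsk7 lay between 5.82 and 9.10 FPKM, with values of -0.41 to -0.25 (log2 fold change) against vehicle and no call in the authors' deposited table, where Tagln had positive ones. Syn3 fell in 2-week females (log2 fold change -1.26, adjusted p = 0.0172, in the authors' deposited table), where Timp3 rose. Lrat lies within the antisense gene Rbm46os, whose values are not given here. The part of these overlaps in the result was not tested.

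Secreted signals had their calls mainly at 8 weeks. Ctgf, a matricellular target of TGF-beta and YAP signalling, read 1.37 FPKM in TCPOBOP against 1.02 FPKM in vehicle livers of 2-week males, 2.51 against 2.76 FPKM in 2-week females, 1.68 against 0.572 FPKM under high and 3.84 against 1.54 FPKM under low corn oil. Its log2 fold changes of 1.61 (adjusted p = 0.0127) and 1.22 (adjusted p = 0.00855) at 8 weeks were called, and those of 0.35 and -0.14 in 2-week males and females were not, in the authors' deposited table. Tgfb2, a TGF-beta isoform, read 0.145 against 0.115, 0.122 against 0.125, 0.141 against 0.0612 and 0.159 against 0.0564 FPKM in TCPOBOP and vehicle livers of 2-week males, 2-week females, high oil and low oil. It was called in the last at a log2 fold change of 1.37 (adjusted p = 0.0351) in the authors' deposited table. Tgfb1, the main fibrogenic isoform, was nearly level at 5.59 against 5.18, 8.44 against 7.96, 5.00 against 5.37 and 8.20 against 6.71 FPKM in the same order, with an adjusted p of 0.984 or more in the authors' deposited table.

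Cyr61, a relative of Ctgf and a YAP target, went the other way. It read 4.48 FPKM in TCPOBOP against 6.19 FPKM in vehicle livers of 2-week males, 4.13 against 7.09 FPKM in 2-week females, 2.63 against 3.13 FPKM under high and 5.08 against 5.60 FPKM under low corn oil. Its log2 fold change was called in females (-0.78, adjusted p = 0.0154) and was negative but not called in the other 3 comparisons of the authors' deposited table. Hgf, the hepatocyte growth factor that stellate cells secrete, read 1.15 against 1.35, 2.42 against 2.27, 0.720 against 1.06 and 1.49 against 2.09 FPKM in TCPOBOP and vehicle livers of 2-week males, 2-week females, high oil and low oil, without a call (smallest adjusted p = 0.0839 in the authors' deposited table). Of the PDGF receptors, Pdgfrb, the stellate cell receptor, read 2.23 against 2.25, 3.35 against 2.80, 2.34 against 1.88 and 3.28 against 3.06 FPKM in the same order. Pdgfra had log2 fold changes of -0.47 to -0.31, and neither receptor was called in the authors' deposited table.

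Contractile genes were called only in the 8-week comparisons. Tagln (transgelin), an actin-binding protein of smooth muscle and activated stellate cells, read 1.99 FPKM in TCPOBOP against 1.54 FPKM in vehicle livers of 2-week males, 2.08 against 1.34 FPKM in 2-week females, 1.96 against 0.781 FPKM under high and 2.18 against 0.907 FPKM under low corn oil. Its TCPOBOP levels were alike in all 4 groups, and the vehicle levels at 8 weeks were the low ones. The log2 fold changes of Tagln were 0.31 and 0.63 at 2 weeks, not called, and 1.38 (adjusted p = 0.0462) and 1.16 (adjusted p = 0.00675) at 8 weeks in the authors' deposited table. Acta2, the alpha smooth muscle actin used as a marker of activated stellate cells, was scarce at 0.184 against 0.163, 0.259 against 0.177, 0.193 against 0.0747 and 0.293 against 0.0879 FPKM in TCPOBOP and vehicle livers of 2-week males, 2-week females, high oil and low oil. It was called in the last (log2 fold change 1.59, adjusted p = 0.0413), and its value of 1.41 under high corn oil missed the threshold (adjusted p = 0.160) in the authors' deposited table. Rgs5, a pericyte regulator of G protein signalling, read 4.17 against 2.99, 6.64 against 5.14, 2.14 against 2.49 and 6.50 against 4.83 FPKM in the same order, and neither it nor Des (desmin) was called. Smooth muscle markers moved as follows beside these genes. Myh11 was called higher under low corn oil at 8 weeks (value 1.31 on the log2 scale, adjusted p = 0.0144, in the authors' deposited table), Myocd was listed at 0 in all groups, and the 5 markers summed to between 1.46 and 2.85 FPKM over the groups. Their part in the result was not tested.

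Neither gene of the quiescent, retinoid-storing state was called higher. Lrat, which esterifies retinol for storage and marks stellate cells, read 1.90 FPKM in TCPOBOP against 2.45 FPKM in vehicle livers of 2-week males, 3.21 against 4.78 FPKM in 2-week females, 1.33 against 1.95 FPKM under high and 1.98 against 3.34 FPKM under low corn oil. Lrat was lower in each TCPOBOP group than in its own vehicle group, and called under low corn oil (log2 fold change -0.86, adjusted p = 0.00773), with values of -0.44, -0.60 and -0.51 elsewhere in the authors' deposited table. Reln (reelin), another stellate cell product, read 3.63 against 3.64, 5.74 against 5.70, 2.78 against 3.23 and 4.31 against 5.61 FPKM in TCPOBOP and vehicle livers of 2-week males, 2-week females, high oil and low oil, with no call. Of the 12 stellate cell markers, 1 rose in each comparison with vehicle, and Lrat and Lhx2 fell under low corn oil. The median log2 fold change of those markers lay between -0.18 and 0.03 in the 4 comparisons.

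**Figure D3:**
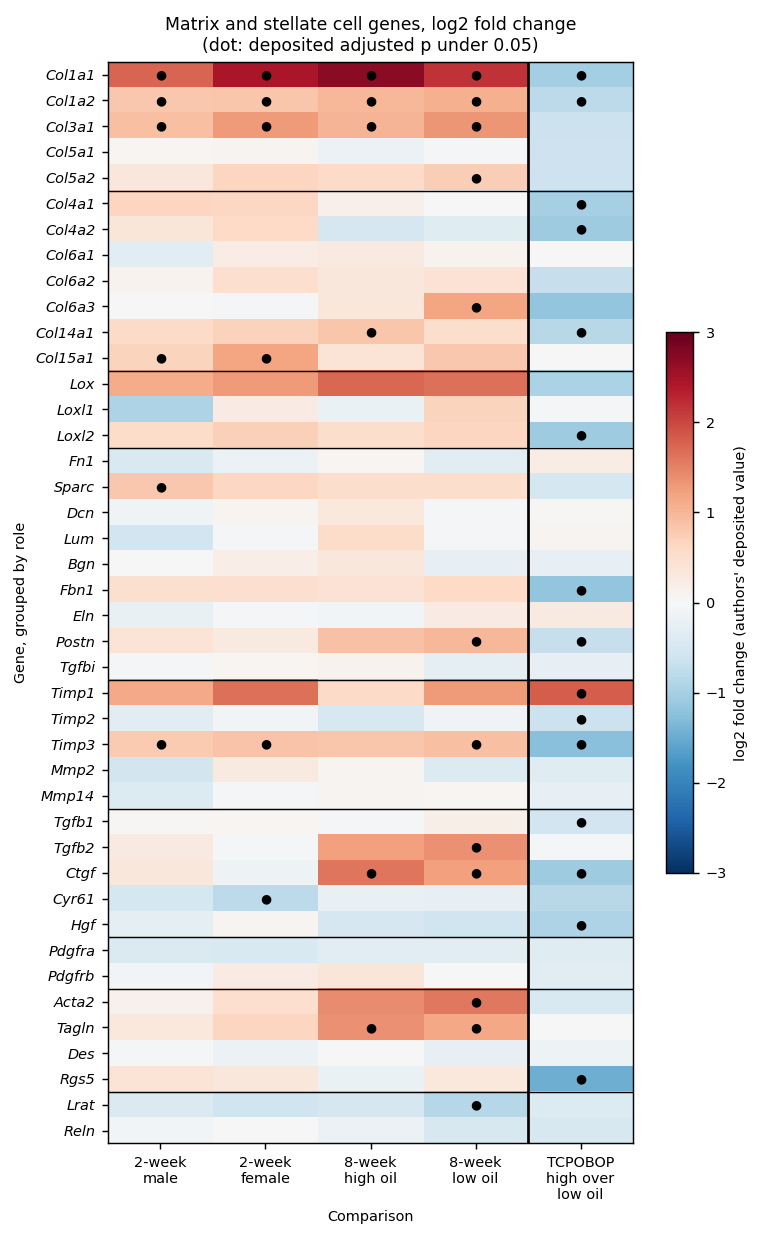
Heat map of the log2 fold change of the 42 genes (rows, grouped by role) in 5 comparisons (columns) of the authors' deposited table; a dot marks a deposited adjusted p under 0.05. Col1a1, Col1a2 and Col3a1 carry a dot in all 4 comparisons with vehicle, Ctgf and Tagln in both at 8 weeks, and 15 genes carry one in the last column, of which Timp1 alone is positive.

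Across the set, 16 of the 42 genes (38.1%) had positive log2 fold changes in all 4 comparisons with vehicle. So did 22.7% of all genes above 0 FPKM in the 4. Negative values throughout were found for 5 of the 42 (Timp2, Cyr61, Pdgfra, Lrat and Reln), for which no share over all genes was computed. Of the 42, 14 were called higher at least once, 7 of them in 1 comparison, 3 in 2 comparisons, Timp3 in 3 and the collagens Col1a1, Col1a2 and Col3a1 in 4. Of the 16750 genes above 0 FPKM in the 4 comparisons, 11% were called higher at least once. In either direction and over all 5 comparisons, 25 of the 42 were called at least once and 17 in none, where 27.1% of 16698 genes were called at least once. The calls under high over low corn oil count in this share. Markers of other cell types that can express these genes were measured beside them. Of 14 Kupffer cell and macrophage markers 2 rose in 2-week males, 2 in 2-week females, 3 under high and 2 under low corn oil, and their summed level was 152 against 102, 215 against 163, 157 against 128 and 176 against 137 FPKM in TCPOBOP and vehicle livers of those comparisons. Of 6 portal fibroblast and mesothelial markers 3 fell in 2-week males and 1 rose under high corn oil, with sums of 3.93 to 7.74 FPKM. Endothelial markers had 1 or 2 of 15 higher and none lower in each. Their part in the result was not tested.

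Genes acting with these were read from further lists. Of 18 collagen-processing enzymes, Bmp1, the procollagen C-proteinase, fell in all 4 comparisons, with log2 fold changes of -0.91, -0.98, -0.89 and -0.99 in 2-week males, 2-week females, high oil and low oil of the authors' deposited table. P4hb, a prolyl hydroxylase subunit that is also a general disulfide isomerase, rose in 3, with log2 fold changes of 1.01, 0.87 and 0.74 in females and at 8 weeks in the authors' deposited table. Of the 18, 1 rose and 1 fell in 2-week males, in 2-week females and under high corn oil, and 1 rose and 2 fell under low corn oil. Pcolce2 rose in 2-week males (0.80), and Serpinh1 fell under low corn oil (-0.91, adjusted p = 0.000423) in the authors' deposited table. Among 22 genes of TGF-beta and integrin signalling, Tgfbr2, the ligand-binding TGF-beta receptor, rose in all 4 comparisons (log2 fold changes 0.99, 0.94, 1.25 and 0.90, adjusted p from 0.000186 to 0.00149, in the authors' deposited table). Thbs1, an activator of latent TGF-beta, rose at 8 weeks by 1.82 under high and 2.29 under low corn oil on the log2 scale of the authors' deposited table. The inhibitor Smad7 and the latent TGF-beta binding protein Ltbp2 fell in 2-week females (-1.10 and -1.24) and under low corn oil at 8 weeks (-0.63 and -1.16), and Ltbp3 rose under high corn oil (1.45) in the authors' deposited table. In all, 2 of the 22 rose and none fell in 2-week males, 2 rose and 3 fell in 2-week females, 4 rose and none fell under high corn oil, and 2 rose and 2 fell under low corn oil.

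Collagens outside the set went both ways. Of 12 such genes, 2 rose and 2 fell in 2-week males, 1 rose and 3 fell in 2-week females, 2 rose and 3 fell under high corn oil, and 1 rose and 2 fell under low corn oil. Col27a1, a fibrillar collagen, fell in all 4 comparisons, to 10.6 against 25.2, 3.04 against 6.05, 10.4 against 28.6 and 14.3 against 44.1 FPKM in TCPOBOP and vehicle livers of 2-week males, 2-week females, high oil and low oil. The transmembrane collagen Col13a1 fell in all 4 as well (log2 fold changes -1.26 to -1.02 in the authors' deposited table). Col16a1 rose in 3 of them, by 0.78, 1.39 and 1.89 in 2-week males, 2-week females and high oil, and Col8a1, a short-chain collagen, rose at 8 weeks by 3.00 and 2.21 on the log2 scale under high and low corn oil in the authors' deposited table. Among 28 other matrix genes and proteases, Mmp12, the macrophage metalloelastase, rose in all 4, at log2 fold changes of 3.04, 4.36, 5.27 and 4.40 in the same order of groups in the authors' deposited table. Mmp13, a collagenase, rose in 2-week females and under high corn oil (2.55 and 3.59), and Adamtsl2 rose in females and fell under low corn oil (1.41 and -0.69) on the log2 scale of the authors' deposited table. Of 11 basement membrane genes, Lama2 rose under low corn oil (1.34) and Lama5 fell in 2-week females (-1.02), beside 1 fall of Col18a1 in 2-week males, in the authors' deposited table.

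Among 20 other genes used for stellate cells, 4 rose and 1 fell in 2-week males, 3 rose and none fell in 2-week females, 4 rose and 1 fell under high corn oil, and 4 rose and 2 fell under low corn oil. Rarb, a retinoic acid receptor and itself a retinoic acid target, rose in all 4 by 1.41 to 1.50 on the log2 scale of the authors' deposited table. Vim (vimentin) rose in females and at 8 weeks, at log2 fold changes of 1.02, 1.06 and 1.36, and Nt5e rose in the 3 male comparisons by 1.74, 1.58 and 2.07 in the authors' deposited table. Hhip, a hedgehog inhibitor, fell in the same 3, with values of -1.30, -1.30 and -1.68 (log2) in the authors' deposited table. None of Rarb, Vim and Nt5e is restricted to stellate cells.

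The last comparison of the authors set TCPOBOP males of the high corn oil regimen over those of the low one at 8 weeks. It shares its TCPOBOP libraries with the 2 comparisons at 8 weeks described above. Of the 42 genes 14 were lower under high corn oil and 1 was higher, where 5.07% of all 18186 genes above 0 FPKM were called lower and 4.78% higher. The median log2 fold change of the 42 was -0.55, against -0.04 over all genes. The lower genes came from 7 of the 9 roles, with none among the PDGF receptors or the quiescent stellate cell genes: Col1a1 (1.38 against 3.14 FPKM under high and low oil), Col1a2 (2.12 against 4.10), Col4a1 (4.10 against 9.06), Col4a2 (2.72 against 6.37), Col14a1 (5.37 against 10.4), Loxl2 (0.542 against 1.25), Fbn1 (0.269 against 0.680), Postn (2.04 against 3.65), Timp2 (3.56 against 6.19), Timp3 (2.78 against 7.34), Tgfb1 (5.00 against 8.20), Ctgf (1.68 against 3.84), Hgf (0.720 against 1.49) and Rgs5 (2.14 against 6.50 FPKM). Rgs5 fell furthest among the called genes, with a log2 fold change of -1.46 (adjusted p = 1.29e-06), followed by Timp3 at -1.25 (adjusted p = 0.000228) and Fbn1 at -1.18 (adjusted p = 8.29e-05) in the authors' deposited table. Col1a1 was close to the threshold (-1.02, adjusted p = 0.0497), Tgfb1 and Ctgf had adjusted p of 0.0410 and 0.0431, and Col3a1 missed it (-0.64, adjusted p = 0.0677) in the authors' deposited table.

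Timp1 was the exception. It read 1.34 FPKM in TCPOBOP livers under high corn oil against 0.420 FPKM under low corn oil, at a log2 fold change of 1.82 (adjusted p = 0.000267) in the authors' deposited table. The vehicle livers showed the same order, 0.938 FPKM under high against 0.159 FPKM under low corn oil, for which no comparison was in the table. Dcn (48.7 against 52.3 FPKM), Fn1 (55.0 against 52.5 FPKM) and Des (1.11 against 1.37 FPKM) had no call under high against low corn oil.

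**Figure D4:**
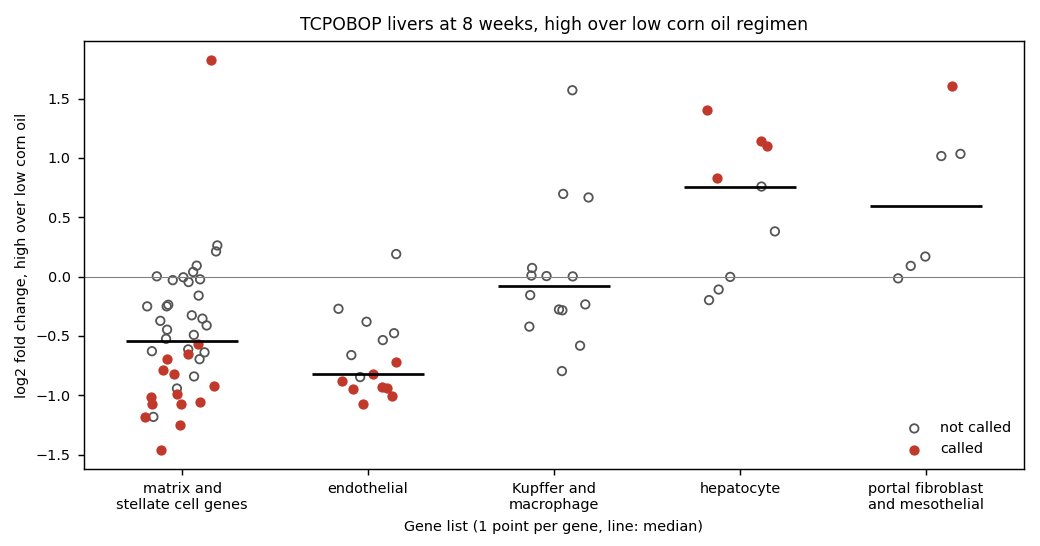
Log2 fold change of each gene (points, red where called) in TCPOBOP livers under high over low corn oil at 8 weeks, for the 42 genes and for 4 lists of cell type markers, with the median of each list as a line. The medians are -0.55 for the 42 genes, -0.82 for endothelial, -0.08 for Kupffer cell and macrophage, 0.76 for hepatocyte and 0.59 for portal fibroblast and mesothelial markers, and Timp1 is the red point at 1.82.

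In the pathway lists, basement membrane genes had 5 of 11 lower (Lama2, Lama4, Lamc1, Nid1 and Hspg2) and none higher, and TGF-beta and integrin genes 4 of 22 lower, Thbs1 among them (-1.33), and Ltbp3 higher (0.93) in the authors' deposited table. Ppib (1.14) and P4hb (0.75) were also higher, and Col4a4 (-2.40) and Col13a1 (-0.70) lower, as log2 fold changes in the authors' deposited table.

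Markers of other cells moved in the same comparison. Of 15 endothelial markers 8 were lower and none higher (median log2 fold change -0.82), of 14 Kupffer cell and macrophage markers none was called, and of 9 hepatocyte markers 4 were higher and none lower (median 0.76). Summed endothelial markers read 164 FPKM under high against 266 FPKM under low corn oil in TCPOBOP livers, and 169 against 262 FPKM in vehicle livers. The vehicle livers, for which the table gave no test, had 37 of the 42 genes lower under high than under low corn oil, at a median log2 FPKM ratio of -0.50 (pseudocount 0.1), and all 15 endothelial markers lower, while 52.1% of the 11839 genes averaging at least 0.5 FPKM were higher. Their part in the result was not tested. The regimens also differ in oil volume, DMSO, later dose and library set code, and the vehicle groups also in time of treatment (8 weeks under high, 4 to 8 weeks under low corn oil) and in age (2 of the 4 low corn oil mice were 11 to 12 weeks old). These cannot be told apart here. For this comparison and for low corn oil at 8 weeks the deposited fold changes carry a scaling of 0.15 and -0.11 (log2) relative to the FPKM ratio. Without it the median of the 42 genes under high over low corn oil was -0.64 (pseudocount 0.1) in place of -0.55. The median of the 9899 genes at 1 FPKM or more in both groups moved down as well, from 0.05 to -0.10.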

How the data were processed

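Nuclear RNA of 28 mouse livers in 8 groups was sequenced. The submitters' processing notes list TopHat2 2.0.13, featureCounts 1.4.6-p5, edgeR (no version given) and build mm9. Reads were counted over gene bodies and intensities are FPKM, per the file headers. The deposited table holds 1 FPKM value per group made by the authors; the way replicates were pooled is not stated. The authors' fold change is a signed score (numerator over denominator where positive, minus the inverse where negative), turned here into a log2 fold change. The authors' p-values are edgeR values that behave as adjusted ones, with 64.5% of them at 1 in 2-week males. The genes under 0.05 number as many as the header gives up and down. No column holds a single library, so no SD, interval or own fit was possible. A gene counted as tested in a comparison when above 0 FPKM in either group.

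The 42 members, their 9 roles and the lists were chosen with earlier results of these data known. Named are members called in at least 1 comparison, the most abundant member of each role, and pathway genes called in at least 2 comparisons or among the 2 largest called changes of their list; the other genes named were chosen after their values were seen. Calls at p under 0.01, at least 2-fold, a mean of at least 0.5 FPKM and FPKM ratios with pseudocounts of 0.1 and 1 were the alternatives. Lepre1, Leprel2, Adgre1 and Tf had no matching symbol (Emr1, the older symbol of Adgre1, was listed). Upstream windows are from RefSeq on GRCm38.p6, overlaps from GENCODE M21 on GRCm38, by name only. Python 3.11.15 with pandas 2.3.3 and matplotlib 3.10.9 was used, and the conversion was tested on simulated data. The labels give each library its own liver, so the authors' p-values reflect the spread between mice. Values of some listed genes are not reported here, though counts, sums and medians include them.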

Additional observations from a re-analysis of the deposited data

How the results depend on the processing

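No paired analysis was possible because the table holds no value of a single library, and for the same reason no replicate could be left out in turn. Asking for at least 2-fold as well left 1 of 6 called genes in 2-week males, 3 of 6 in 2-week females and 8 of 15 in the comparison of high over low corn oil; a threshold of 0.01 left 2 of 6 under high corn oil at 8 weeks and 8 of 15 in the last comparison. The other counts stayed within 1.5 times under these settings and under a minimum of 0.5 FPKM. The median log2 fold change of the 42 genes in 2-week males was 0.12 and 0.053 with FPKM ratios at pseudocounts of 0.1 and 1, and 0.045 with the minimum of 0.5 FPKM, which 35 genes met. In 2-week females these medians were 0.22, 0.10 and 0.19, under high corn oil 0.26, 0.11 and 0.31, under low corn oil 0.36, 0.14 and 0.11, and for high over low corn oil -0.64, -0.40 and -0.61. A pseudocount of 1 shrinks low genes by construction. None of the 45 called values of named genes changed sign under either FPKM ratio. Depth is unknown, so nothing can be said of the precision of genes under 0.5 FPKM, among them Acta2, Tgfb2, Lox, Fbn1 and Timp1.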

Other observations

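Female livers carried more RNA of this set than male livers at 2 weeks, in FPKM ratios for which the table gave no test. Among vehicle livers 40 of the 42 genes read higher in females than in males, at a median log2 FPKM ratio of 0.34 (pseudocount 0.1), and among TCPOBOP livers 40 of 42 did, at a median of 0.56. Of the 11839 genes averaging at least 0.5 FPKM, 71.0% read higher in vehicle females than in vehicle males and 61.6% in TCPOBOP females than in TCPOBOP males. Lrat read 4.78 FPKM in vehicle females against 2.45 FPKM in vehicle males, Ctgf 2.76 against 1.02 FPKM and Postn 3.42 against 1.79 FPKM, while Col1a1 was nearly equal at 0.332 against 0.324 FPKM. All 15 endothelial and all 14 Kupffer cell and macrophage markers also read higher in vehicle females than in vehicle males. Their part in the result was not tested.

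Vehicle males of the low corn oil regimen treated for 4 to 8 weeks had higher FPKM than those of 2 weeks for 30 of the 42 genes (median log2 ratio 0.23), where 54.7% of the 11839 genes averaging at least 0.5 FPKM read higher. Among the 30 were Col1a1 at 0.648 against 0.324 FPKM and Col4a2 at 7.61 against 3.91 FPKM. Tagln and Acta2 went the other way, at 0.907 against 1.54 FPKM and 0.0879 against 0.163 FPKM. All 15 endothelial markers (median 0.52) and 12 of 14 Kupffer cell and macrophage markers also read higher at 4 to 8 than at 2 weeks, and 1 of 9 hepatocyte markers did (median -1.01). Their part in the result was not tested. These groups carry different library set codes and ages, which cannot be told apart from the time of treatment.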
